A study of Homo sapiens with 3 samples.

Results

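KLHL22, its cullin 3 partners and the GATOR1 complex were followed in Huh7 cells, an established human hepatoma line, with or without chlorogenic acid (CA), a plant polyphenol. The set held 9 genes of the 19740 named on the array, read by 12 of its 34127 probes. They were the adaptor KLHL22, the adaptors KLHL9, KLHL13 and KLHL21, the ligase subunits CUL3 and RBX1, and the GATOR1 subunits DEPDC5, NPRL2 and NPRL3. The genes were selected on measured values of these same arrays: KLHL22 was chosen by its higher signal at CA 50 μM, and the others were taken for their place beside it, so that all values below are descriptions. Total RNA came from 3 groups of Huh7 cells, namely untreated cells, cells given CA at 50 μM and cells given CA at 100 μM, the treatment lasting 24 h. Each group had 1 array, which left 0 degrees of freedom. No difference below therefore has a replicate check, a p-value or a replicate error. The cells are a single tumor line, and less RNA per cell cannot be told apart from fewer cells holding a transcript in such a bulk sample.

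Cullin 3 ligases attach ubiquitin to proteins. CUL3 is the scaffold, RBX1 is the RING subunit that brings in the ubiquitin-conjugating enzyme, and a BTB-Kelch protein such as KLHL22 holds CUL3 through its BTB domain and the substrate through its Kelch repeats. CUL3 with KLHL22 is known for marking DEPDC5 for degradation when amino acids are supplied, which releases mTORC1, the kinase complex that drives growth, and for ubiquitinating the mitotic kinase PLK1. KLHL9, KLHL13 and KLHL21 serve CUL3 in mitosis, where they act on Aurora B. GATOR1 is the GTPase-activating complex for the Rag GTPases RagA and RagB and holds mTORC1 back when amino acids are short. The arrays read transcripts, and none of these protein steps was measured.

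The processed signal, an intensity in arbitrary units with the background already subtracted, was compared after each array had been scaled to its 75th percentile, which was 1059 for the untreated array, 1207 for CA 50 μM and 1249 for CA 100 μM. Between 70.4% and 71.1% of spots per array were well above background, which is the scanner software's call that a spot exceeds its background. The 3 arrays came from 1 slide scan. The CA 100 μM array held disturbed areas, in which spots of otherwise dim probes were bright, and these covered 2219 spots or 5.15% of the array, against 60 and 10 spots on the others. No spot of the 9 genes lay in such an area, and none carried an outlier flag. Of the hepatocyte and hepatoma markers, 8 of 9 genes were measured on both the untreated and the CA 50 μM array, among them ALB, AFP and TTR, while the HNF4A probe was well above background only at CA 50 μM. Of 6 markers of other cell types, 4 genes were measured, and the probes of COL1A1 and KRT5 were not well above background on the untreated and CA 50 μM arrays. None of the marker probes measured on both arrays of a comparison differed 2-fold, while the COL1A1 spot read well above background in a disturbed area of the CA 100 μM array. Their part in the results below was not tested.

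KLHL22 was read by 1 probe with 1 spot per array (A_24_P117323). Its processed signal was 20.5 in untreated cells, 142.9 with CA 50 μM and 38.9 with CA 100 μM. The signal was thus highest at the lower dose, and the higher dose lay between the other arrays. This order was not particular to KLHL22. After scaling, 135 probes well above background on all 3 arrays were at least 2-fold higher at CA 50 μM than in untreated cells. Of these, 125 had CA 100 μM between untreated and CA 50 μM, and 3 had it at or above CA 50 μM. These probes were picked by their CA 50 μM value, which by itself favors a lower value at CA 100 μM. Nothing about dose can therefore be read from this order. After scaling, KLHL22 was 6.10-fold higher at CA 50 μM than in untreated cells, a log2 ratio of 2.61. At CA 100 μM it was 1.61-fold higher than in untreated cells, a log2 ratio of 0.68. The log2 ratio of CA 100 μM to CA 50 μM was -1.92. The probe was well above background on all 3 arrays, although the untreated signal stood close to the lowest signal so called on that array, 12.2.

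**Figure D1:**
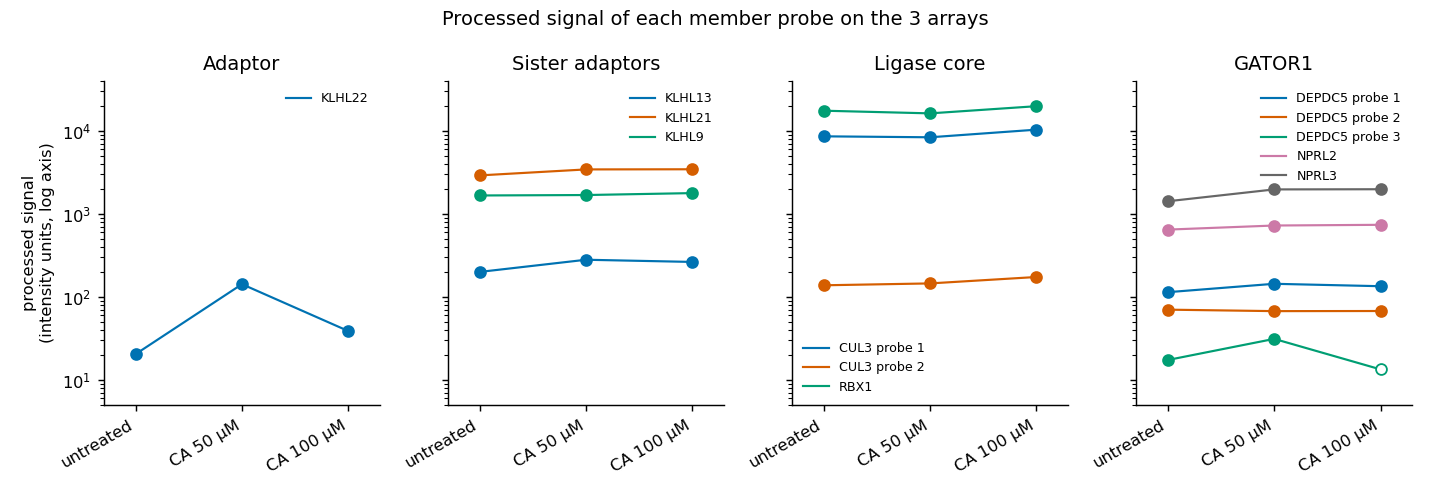
Processed signal (arbitrary units, log axis) of the 12 probes of the 9 genes on the array of untreated cells and on those of CA 50 μM and 100 μM, 1 array per group. Filled circles mark spots well above background and the open circle marks 1 DEPDC5 spot that was not, and the KLHL22 line peaks at 142.9 at CA 50 μM between 20.5 and 38.9.

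The error of each spot, as the scanner software estimated it, was 17.6% of the KLHL22 signal on the untreated array, 10.2% at CA 50 μM and 13.2% at CA 100 μM. Carried to the ratios, this gave an error of 0.29 for the log2 ratio at CA 50 μM and of 0.32 at CA 100 μM. These errors cover a spot and leave out the spread between cultures. Probes printed in 10 spots gave a second measure of the same kind. Among the 104 such probes within 2-fold of the KLHL22 signal, the SD between spots of the log2 ratio at CA 50 μM had a median of 0.14 and a maximum of 0.39. At CA 100 μM, 84 such probes had a median SD of 0.22 and a maximum of 0.63, which is close to the KLHL22 ratio of 0.68 at that dose.

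The unprocessed spot medians of KLHL22 were 78 on the untreated array, 193 with CA 50 μM and 98 with CA 100 μM. The local background around the spot was 31, 32 and 30. Since the median spot of probes never above background read 62, 63.5 and 66, the KLHL22 spot exceeded it by 16 in untreated cells, by 129.5 at CA 50 μM and by 32 at CA 100 μM. The size of the fold thus rested on a small untreated excess. With another background correction, normexp with an offset of 50 on median spot intensities, the log2 ratio at CA 50 μM was 1.097 and that at CA 100 μM was 0.064. The offset is added to every signal, which by itself draws the ratios of dim probes toward 0. The 82 measured spots around it on the slide had a median log2 ratio of 0.08 at CA 50 μM and ranged from -1.03 to 1.17.

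**Figure D2:**
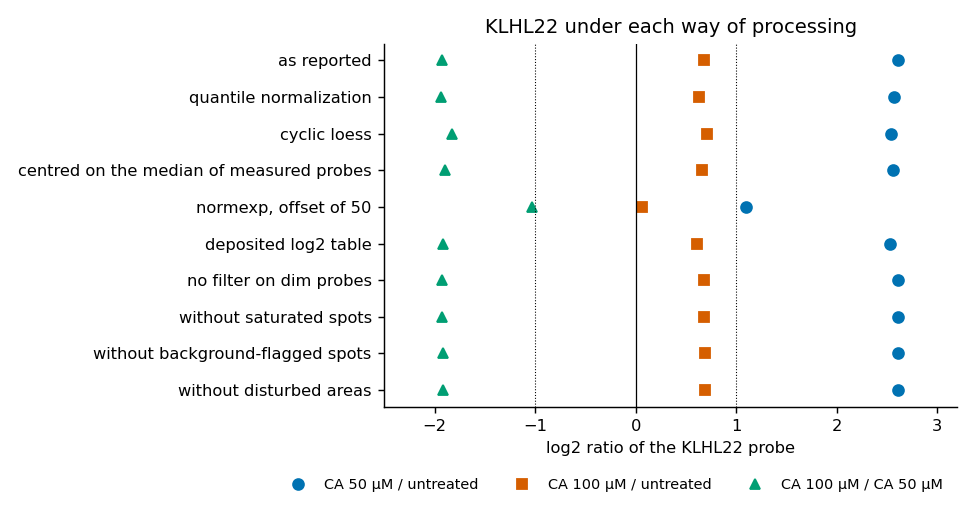
Log2 ratio of KLHL22 between arrays under each way of processing, 1 array per group. For CA 50 μM against untreated the points run from 1.097 with normexp to 2.61, and for CA 100 μM against untreated from 0.064 to 0.71.

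Among 22471 probes measured on both the untreated and the CA 50 μM array, KLHL22 held rank 2 by its log2 ratio. A probe without a current gene name stood above it with a log2 ratio of 2.74, and ZNF846, a zinc finger gene, stood below it at 2.31. In the comparison of CA 100 μM with untreated cells, KLHL22 held rank 377 of 22267. Its probe fell into the dimmest of 5 signal classes, in which the 5th to 95th percentile of the log2 ratio ran from -0.61 to 0.71 at CA 50 μM and from -0.60 to 0.74 at CA 100 μM. The KLHL22 ratio at CA 100 μM of 0.68 lay inside that range.

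**Figure D3:**
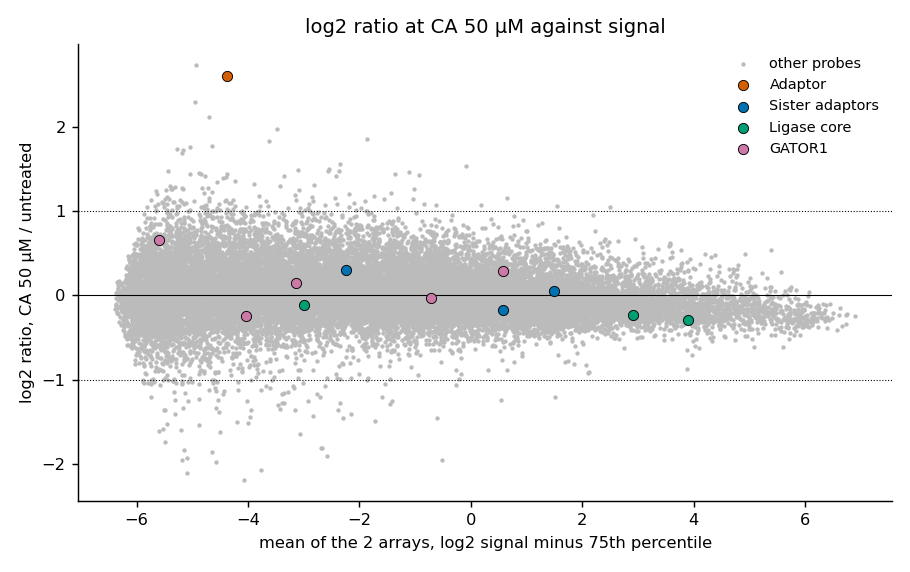
Log2 ratio of CA 50 μM to untreated against mean signal (log2 relative to the 75th percentile) for all 22471 measured probes in grey, with the probes of the 9 genes in color. KLHL22 stands at 2.61 among the dim probes, and the other 11 probes lie between -0.30 and 0.65.

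The sister adaptors all lay within 2-fold of the untreated array at both doses. KLHL9, which pairs with KLHL13 in a mitotic cullin 3 ligase, had signals of 1673 in untreated cells, 1694 with CA 50 μM and 1787 with CA 100 μM, and its log2 ratios to untreated were -0.17 and -0.14. KLHL13 had signals of 201, 281 and 265 in the same order, with log2 ratios of 0.30 and 0.16. Its untreated spot was the lowest of the 3, and both ratios were small beside the 2-fold limit. KLHL21, the adaptor for Aurora B at the spindle midzone, had signals of 2920, 3447 and 3461, with log2 ratios of 0.05 and 0.01, the second of which changed sign under 2 of 9 alternatives. No sister adaptor differed by more than 1.23-fold from the untreated array at either dose.

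The ligase core, CUL3 and RBX1, was read by 3 probes. The brighter CUL3 probe had signals of 8629 in untreated cells, 8404 with CA 50 μM and 10384 with CA 100 μM, and log2 ratios to untreated of -0.23 and 0.03. The dimmer CUL3 probe had signals of 139, 146 and 174, with log2 ratios of -0.11 and 0.09. Both probes of the scaffold were therefore lowest at CA 50 μM after scaling, although the sign of the dimmer probe at CA 100 μM turned under 1 of 9 alternatives. RBX1 had signals of 17565, 16313 and 19911, with log2 ratios of -0.30 and -0.06, and the sign of the latter turned under 3 of 9 alternatives.

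All 3 ligase core probes were thus below untreated at CA 50 μM, and none of the 3 signs at that dose turned under any of the 9 alternatives. Several alternatives could barely move a probe with 1 spot, namely dropping the filter or leaving out saturated spots, background-flagged spots or disturbed areas. For the dimmer CUL3 probe at CA 50 μM these gave -0.114 to -0.111, beside -0.184 in the deposited table. The signal class of RBX1 and the brighter CUL3 probe, the brightest of 5, had a median log2 ratio of -0.10 at that dose, and the class of the dimmer CUL3 probe had a median of 0.06. Between the doses, the 3 probes were higher at CA 100 μM than at CA 50 μM by 0.21 to 0.26 on the log2 scale, again under every alternative. The brighter CUL3 probe at 0.26 and RBX1 at 0.24 lay just above the 95th percentile of their class in that comparison, 0.22. In fold terms these differences were at most 1.19. The spot error of the scanner software was 0.20 to 0.21 for each ligase core log2 ratio, at CA 50 μM and between the doses.

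Of the GATOR1 subunits, DEPDC5, the subunit that CUL3 with KLHL22 targets, was read by 3 probes. Its brightest probe had signals of 114 in untreated cells, 144 with CA 50 μM and 135 with CA 100 μM, and a log2 ratio of 0.15 at CA 50 μM, while at CA 100 μM its ratio was within 0.01 of 0 and took the other sign under 5 of 9 alternatives. The middle probe had signals of 70.5, 67.7 and 67.9, with log2 ratios of -0.25 and -0.29. These probes of 1 gene thus had opposite signs at CA 50 μM, each inside the 5th to 95th percentile of its signal class. The dimmest probe had signals of 17.5, 31.3 and 13.4, and a log2 ratio of 0.65 at CA 50 μM. On the untreated array this spot carried a flag for an unusual local background. At CA 100 μM it was not well above background, which gave only bounds, at least 1.39-fold lower than untreated and at least 2.18-fold lower than CA 50 μM. The probes of DEPDC5 gave no common direction.

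NPRL2, which forms the catalytic arm of GATOR1 with NPRL3, had signals of 649 in untreated cells, 727 at CA 50 μM and 742 at CA 100 μM, with log2 ratios of -0.03 and -0.05. NPRL3 had signals of 1425, 1979 and 1989, with log2 ratios of 0.28 and 0.24. NPRL3 was thus above untreated at both doses, by nearly the same amount and under all alternatives, and NPRL2 stood at the untreated level within 0.05. The spot error of the scanner software was 0.20 for each of these log2 ratios, not far below the NPRL3 ratios. Each ratio lay within the 5th to 95th percentile of its signal class. With normexp, however, the NPRL2 ratio at CA 50 μM was -0.18.

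**Figure D4:**
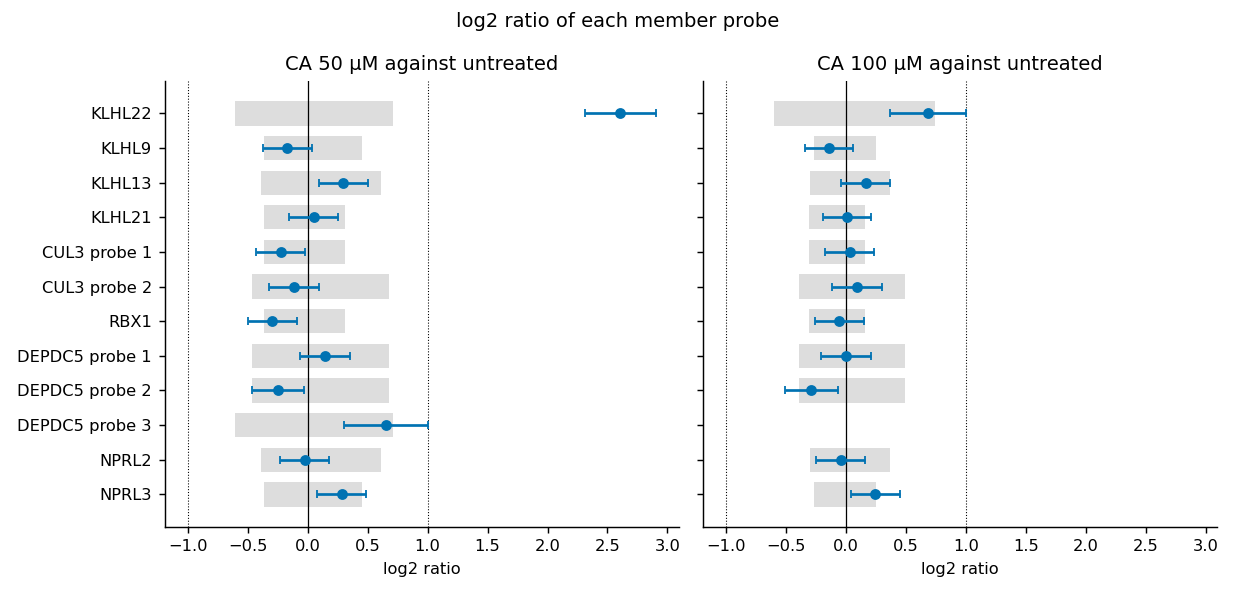
Log2 ratio of each of the 12 probes at CA 50 μM and CA 100 μM against untreated, with whiskers for the spot error of the scanner software and grey bars for the 5th to 95th percentile of all probes of like signal. Dotted lines mark 2-fold, which KLHL22 passed at CA 50 μM (2.61) and did not pass at CA 100 μM (0.68), and the third DEPDC5 probe has no ratio at CA 100 μM.

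Counted by size, 1 of 12 probes of the set was at least 2-fold different at CA 50 μM, KLHL22, against 1.07% of all probes measured. Since KLHL22 was chosen by that ratio, nothing can be read from the count. At CA 100 μM against untreated, 0 of 11 measured probes reached 2-fold, against 0.894% of all probes, or 0.517% without the disturbed areas. Between the doses, 1 of 11 probes did, again KLHL22 and lower at CA 100 μM, against 0.855% of all probes, or 0.419% without the disturbed areas. That ratio uses the same CA 50 μM spot by which KLHL22 was chosen, so nothing can be read from this count either. Without KLHL22, the 11 other probes ranged from -0.30 to 0.65 at CA 50 μM with a median of -0.03, 5 above and 6 below 0, beside a median of -0.01 over all probes. At CA 100 μM, the 10 measured ranged from -0.29 to 0.24, with 6 above and 4 below 0. Their median lay within 0.01 of 0, beside -0.02 over all probes. All of these ratios to untreated, 11 of 11 and 10 of 10, lay inside the 5th to 95th percentile of probes of like signal.

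The wider pathway was read through 5 gene lists. Against untreated, 1.07% of all measured probes were at least 2-fold different at CA 50 μM and 0.894% at CA 100 μM. In the dimmest of 5 signal classes, 76 of 4495 probes were at least 2-fold higher and 54 lower at CA 50 μM. The counts for each list stand beside these shares. The other BTB-Kelch adaptors, which share CUL3 with KLHL22, held 47 genes, and 0 of the 43 probes measured on both arrays were at least 2-fold different at either dose. Their median log2 ratio was -0.01 at both doses, and this sign turned under 3 and 2 alternatives. KLHL28 had the highest ratio of the list at CA 50 μM, 0.65, with 0.35 at CA 100 μM. A dim probe of IVNS1ABP, the influenza NS1-binding Kelch protein, had the lowest at -0.60, while the brighter probe of that gene had -0.01. Probes above background on only 1 array of a comparison gave bounds. KLHL1 was well above background in untreated cells alone, with signals of 27.7 there, 15.6 with CA 50 μM and 20.1 with CA 100 μM, and was at least 2.02-fold lower at CA 50 μM than in untreated cells. KLHL10 was well above background at CA 100 μM alone, at least 2.04-fold higher than untreated, with its spot inside a disturbed area.

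Of the other cullins and the neddylation enzymes, which charge cullins with NEDD8 and remove it again, 29 genes were measured by 36 probes, with 1 at least 2-fold higher and 0 lower at CA 50 μM and 0 of either kind at CA 100 μM. The 1 was UBE2M, the conjugating enzyme that hands NEDD8 to cullins. Its signals were 347 in untreated cells, 876 at CA 50 μM and 729 at CA 100 μM, with log2 ratios of 1.15 and 0.83. Both doses were above untreated for UBE2M, and normexp brought the ratio at CA 50 μM to 0.95, under 2-fold. DCUN1D1, a co-factor of neddylation, had the lowest ratio of the list at CA 50 μM, -0.26. The list had a median of -0.01 at the lower dose, with the other sign under 4 alternatives, and of 0.02 at the higher dose, with the other sign under 1.

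Upstream of GATOR1 lie GATOR2, KICSTOR and the amino acid sensors, of which 13 of 15 listed genes were found on the array. Of 16 probes measured, 0 were at least 2-fold different at either dose, and the medians were 0.05 and 0.03, the first turning sign under 1 alternative. KPTN, a KICSTOR subunit, had the highest ratio at CA 50 μM, 0.56, and SEC13, a GATOR2 and coat protein subunit, had the lowest at -0.20, with its other probe at 0.24.

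Downstream, the Rag GTPases, Ragulator and mTORC1 were read by 32 measured probes of 26 genes, of which 2 were at least 2-fold higher and 0 lower at CA 50 μM, and 0 of either kind at CA 100 μM. A dim probe of FLCN, which acts on the Rag GTPases RagC and RagD, had signals of 23.8 in untreated cells, 72.4 at CA 50 μM and 38.6 at CA 100 μM, with log2 ratios of 1.42 and 0.46. The brighter FLCN probe had signals of 186, 202 and 185, with log2 ratios of -0.07 and -0.25, so that the probes of this gene did not share the difference. AKT1S1, the mTORC1 inhibitor PRAS40, had signals of 137, 332 and 233, with log2 ratios of 1.09 and 0.53. With normexp the ratios at CA 50 μM were 0.49 for the dim FLCN probe and 0.82 for AKT1S1, both under 2-fold. The lowest ratio of the list at CA 50 μM was that of a probe of EIF4EBP2, a translational repressor under mTORC1, at -0.50, with -0.21 for its other probe. The median of the list was -0.06 at CA 50 μM, and MTOR itself had a log2 ratio of 0.11.

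The mitotic list held the substrates of these adaptors, PLK1 and AURKB, and the partners of Aurora B, with 6 probes of 5 genes. At CA 50 μM, 1 of 6 was at least 2-fold higher and 0 were lower, and at CA 100 μM 0 of 6 were either. The brighter PLK1 probe had signals of 471 in untreated cells, 911 at CA 50 μM and 590 at CA 100 μM, with log2 ratios of 0.76 and 0.09. The dimmer PLK1 probe had signals of 19.1, 52.2 and 35.0, with log2 ratios of 1.26 and 0.64. Both probes of PLK1 were thus highest at CA 50 μM, and the dim one passed 2-fold there but reached 0.30 with normexp, which also turned the sign of its ratio at CA 100 μM. AURKB, the kinase Aurora B, had signals of 624, 1007 and 958, with log2 ratios of 0.50 and 0.38. INCENP, which anchors Aurora B, had the lowest ratio at CA 50 μM, -0.26. The other partners, BIRC5 and CDCA8, had -0.16 and 0.13 at that dose. The list had a median of 0.31 at CA 50 μM, ranging from 0.13 to 0.35 over the alternatives, and of 0.05 at CA 100 μM, beside -0.01 and -0.02 over all probes. The spots of INCENP and BIRC5 lay in disturbed areas of the CA 100 μM array.

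**Figure D5:**
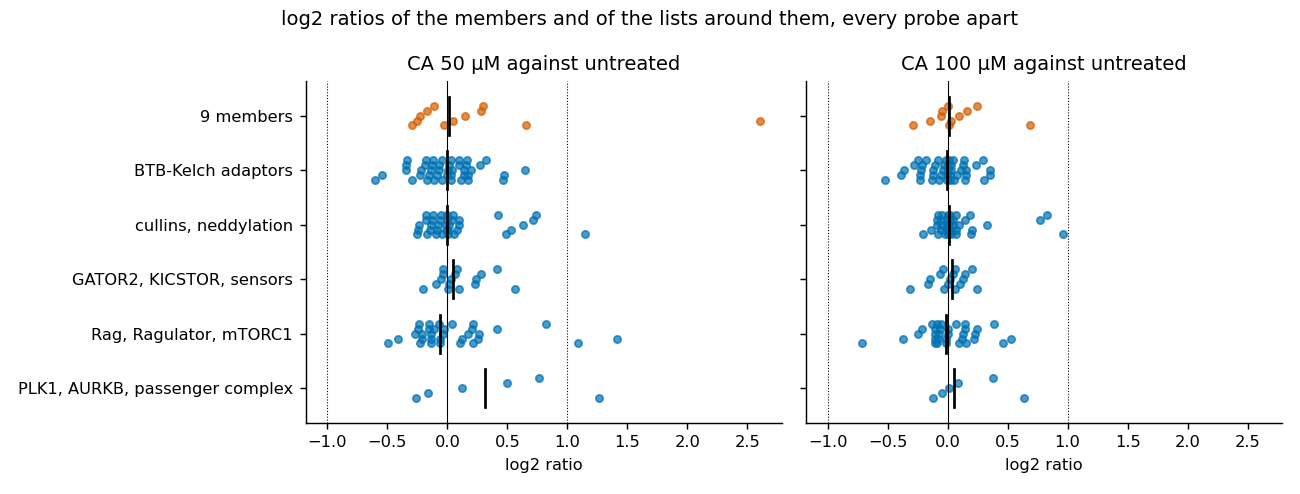
Log2 ratios of every measured probe of the 5 pathway lists at CA 50 μM and CA 100 μM against untreated, with a vertical bar for each list's median. Only UBE2M, FLCN, AKT1S1 and PLK1 have a probe past 2-fold at CA 50 μM, none has one at CA 100 μM, and the mitotic list has the highest median at CA 50 μM, 0.31.

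Likeness to KLHL22 was measured by the Euclidean distance between pairs of log2 ratios, over the 2 comparisons with untreated, and the nearest named probes included those of CTNNB1, ZNF846, MAZ and YWHAE. The CTNNB1 probe, for β-catenin, lay at a distance of 0.65 with log2 ratios of 1.98 and 0.83, which were 1.13 and 0.31 at their lowest over the alternatives. Its signals were 47.5 in untreated cells, 213.6 at CA 50 μM and 99.7 at CA 100 μM. ZNF846 lay at 0.71 with ratios of 2.31 and 0.04, the first of which was 0.83 at its lowest over the alternatives, under 2-fold, while the second ran from -0.20 to 0.07. Farther off were MAZ, a zinc finger factor, at 1.04 and YWHAE, a 14-3-3 protein, at 1.08. The likeness did not extend to the other measured probe of CTNNB1, which was printed in 10 spots and had log2 ratios of -1.24 and -0.66. The second MAZ probe had the same order as the first, with 1.07 and 0.52. That order was shared by 125 of the 135 probes 2-fold higher at CA 50 μM, a set picked by that ratio. Likeness over 3 arrays is a description and says nothing of the genes' function.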

How the data were processed

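Transcripts were measured by the authors on one-color Agilent whole genome arrays, 1 per group, with Cy3 as the dye. The deposited spot files hold intensity values that the authors obtained with Feature Extraction 11.0.1.1, with background subtracted and no scaling between arrays. The authors also deposited a table of log2 values, whose method was not given in the sources used here, and it served as an alternative.

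Each spot's processed signal was set on the log2 scale against the 75th percentile of its array. Spots with an outlier flag (429, 569 and 596) were left out. The 10 spots of 999 probes were averaged, and 33128 probes had 1 spot. Ratios were formed where at least 50% of a probe's spots were well above background on both arrays, with each probe kept apart. A bound set the bright array against the higher of the dim probe's own signal and the floor of measured probes on its array. Names came from the RefSeq accessions of the files through a gene table of assembly GRCh38.p14, which named 25771 probes (75.5%). The array was annotated on another assembly, so the array's coordinates were not used, and the order of genes beside KLHL22 was that of GRCh38.p14. Signal classes were 5 groups of equal size by mean signal. An area counted as disturbed where, in a window of 17 rows by 7 columns, at least 5 and at least 25% of the spots of dim probes were at least 4-fold brighter on 1 array.

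The genes and lists were chosen with earlier results of these data known. Named in the text were all 9 genes, list genes at least 2-fold different, each list's highest and lowest ratio at CA 50 μM, PLK1, AURKB and the 5 nearest patterns, of which 1 is not reported here. Some markers, MTOR, BIRC5, CDCA8 and genes beside KLHL22 were named outside this rule. Alternatives covered the scaling (quantile, cyclic loess, or the median of measured probes as the center), the background (normexp on median spot intensities, without background-flagged spots), the deposited table, the filter, the leaving out of saturated spots, background-flagged spots or disturbed areas, and the mean over a gene's probes. The number of arrays limits the precision. The steps were tested on simulated data. The tools were R 4.3.3 with limma 3.58.1, and Python 3.11.15 with scipy 1.17.1, pandas 2.3.3, numpy 2.4.6 and matplotlib 3.10.9.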

Additional observations from a re-analysis of the deposited data

How the results depend on the processing

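No paired analysis was possible because each group had 1 array, and for the same reason no replicate could be left out. A ratio or list median counted as held within the median SD between spots of a probe (0.065 at CA 50 μM, 0.064 at CA 100 μM and 0.060 between the doses on the log2 scale), and a count within 1.5 times. By this, 215 recomputed KLHL22 ratios, counts and list medians held and 19 moved, and of the other genes' ratios 252 held and 31 moved. For a probe with 1 spot, some alternatives were bound to count as held, so these tallies do not measure robustness. Dropping the filter, or leaving out saturated spots, background-flagged spots or disturbed areas, each gave 2.61 for KLHL22 at CA 50 μM. The KLHL22 ratios kept their sign under each alternative. For KLHL22, the log2 ratio at CA 50 μM was 2.54 with cyclic loess, 2.53 in the deposited table and 1.097 with normexp. Against untreated, CA 100 μM gave 0.61 in the deposited table and 0.064 with normexp, and between the doses it was -1.83 with cyclic loess and -1.03 with normexp. The mitotic list's median at CA 50 μM was 0.23 with normexp and 0.13 as the mean over probes. The median of GATOR2, KICSTOR and the sensors between the doses was -0.08, and -0.014 with normexp. Without a filter on dim probes, 2 probes of the set differed 2-fold between the doses, the second being the dimmest DEPDC5 probe. Over all probes, the counts past 2-fold were 241 at CA 50 μM, 199 at CA 100 μM and 192 between the doses. They were 38, 17 and 27 with normexp, and 2124, 2499 and 2156 without the filter. Leaving out disturbed areas gave 109 at CA 100 μM and 89 between the doses. The normexp values also used median spot intensities and left out background-flagged spots, and leaving out those spots alone gave 233 probes at CA 50 μM. The offset of 50 in normexp by itself draws the ratios of dim probes toward 0. How far each step accounts for these differences was not tested. Of the probes past 2-fold at CA 50 μM, 57.3% were higher, against 46.1% in the deposited table. For CA 100 μM the share was 71.4%, against 47.1% with normexp and 52.3% without disturbed areas. The ratios of KLHL22 and the dimmest DEPDC5 probe were limited by a small signal over background.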

Other observations

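The genes that lie next to KLHL22 in the gene order of assembly GRCh38.p14 were read as well, since they had no place among the comparisons above. At CA 50 μM and CA 100 μM against untreated, DGCR6L had log2 ratios of 0.50 and 0.30, ZNF74 of 0.45 and 0.09, and MED15, a Mediator subunit, of 0.56 and 0.40. SCARF2 had ratios of 0.26 and -0.11 by its brighter probe and of 1.28 and 0.51 by its dimmer probe. The dimmer SCARF2 probe had signals of 18.6 in untreated cells, 51.4 at CA 50 μM and 31.3 at CA 100 μM. TMEM191A had -0.13 and -0.09, and POM121L4P was not well above background. At CA 50 μM the 95th percentile over all measured probes was 0.59, which only the dimmer SCARF2 probe exceeded. A shared difference of the genes beside KLHL22 was not tested.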
